A study of Mus musculus with 12 samples.

Results

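Lymphomas that arose in TCF-1 KO mice were compared with wild-type DN3 thymocytes, the normal early T-cell stage against which the study set them. The arrays were chosen by their group labels alone, 6 lymphoma arrays and 3 wild-type DN3 arrays, 9 of the 12 arrays of the series. The other 3 arrays held DN3 thymocytes of TCF-1 KO mice and were used as a second reference. All mice were of the C57/BL6 strain. The wild-type and the KO DN3 cells were sorted from mice of 8 to 12 weeks, and the lymphoma cells were sorted from thymuses of TCF-1 KO mice of 12 to 40 weeks, so genotype, age and transformation differ together between lymphomas and wild-type cells and cannot be told apart in this comparison. The labels call the samples of each group biological replicates, and they state neither the sorting gate of the lymphoma cells nor the deleted allele nor the sex of the mice. The deleted gene itself was not analysed here, so the labels could not be checked against it.

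Early thymocytes carry neither CD4 nor CD8 and pass through numbered double-negative (DN) stages. At DN3 the recombinase genes cut and join the T-cell receptor beta locus, Notch signals are strong, and cells that make a working beta chain receive a pre-T-cell receptor signal, divide and move on to the CD4 CD8 double-positive (DP) stage. TCF-1 is a DNA-binding factor of the TCF/LEF family, which acts downstream of Notch to install the T-cell programme and can bind beta-catenin. Mice without it have a small thymus, and some of them develop thymic T-cell lymphomas.

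Each value below is a log2 expression value of a gene on a whole-transcript microarray, so a difference of 1 is 2-fold. Of 19938 genes with a value, 14953 passed a filter on low signal and were tested. The median value over all probe sets lay between 5.30 and 5.39 on the 12 arrays, and the number of arrays limits the precision. A block of probe sets without a gene name separated 4 arrays (wild-type DN3 array 1, KO DN3 array 1 and lymphomas 1 and 2) from the other 8. Both subsets hold lymphomas and wild-type cells, and the changes within the smaller and the larger subset are given, in that order, beside the genes described in full. Lymphomas 1, 2 and 6 and KO DN3 array 3 had low Xist (an RNA of the silenced X of female cells) and high signal of the Y-linked gene Uty, while all 3 wild-type arrays had high Xist, so sex is unequal between the groups. With the 3 high-Xist lymphomas alone 681 of the 871 called genes described below stayed called, and with the Xist class as a term in the fit 671 did.

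The labelled cell type was checked first, beginning with Il2ra, Cd3e, Cd4 and Ptcra. Il2ra, the interleukin-2 receptor chain that marks DN2 and DN3 cells, stood at 10.73, 10.77 and 10.71 on the wild-type arrays and at 9.89 to 10.62 (median 10.46) on the lymphoma arrays. All lymphomas lay below all wild-type cells for Il2ra, but the difference did not pass the test (log2 change −0.35 ± 0.14 SE, limma adjusted p = 0.24). Cd3e, a chain of the T-cell receptor complex, was at 9.89, 10.20 and 10.26 on the wild-type arrays and at 10.28 to 10.73 (median 10.48) on the lymphoma arrays (limma adjusted p = 0.11). Cd4 was near the floor of the array in both groups, at 4.80 to 5.26 on the wild-type arrays and 4.82 to 5.14 on the lymphoma arrays. Ptcra, the invariant partner of the beta chain in the pre-T-cell receptor, was at 7.08, 7.07 and 7.18 on the wild-type arrays and at 6.17 to 6.95 (median 6.50) on the lymphoma arrays, and missed the threshold (limma adjusted p = 0.063). Other genes that define the stage were called, as described below. The recombinase genes Rag1 and Rag2, high at DN3, fell by 1.92 and 1.39. Kit, low at DN3, fell by 1.03, and the Notch target Dtx1, high at DN3, rose by 0.92. The CD8 chain gene Cd8a, low at DN3, was not called but reached 7.70 in lymphomas, against 5.67 to 6.03 in wild-type cells. The lymphomas thus kept part of the DN3 marker profile.

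The total distance of a tumour from the normal stage was taken as the root mean square of the log2 differences over the 14953 genes, averaged over the 3 wild-type arrays. Lymphomas 1 to 6 stood at 0.420, 0.398, 0.388, 0.398, 0.378 and 0.372, a mean of 0.392 ± 0.017 (SD, n = 6). The KO DN3 arrays stood at 0.372, 0.288 and 0.351, a mean of 0.337 ± 0.0435 (SD, n = 3). The lymphomas were farther from wild-type cells by 0.0553, although the nearest lymphoma and the farthest KO DN3 array were level at 0.372 (exact permutation test, two-sided p = 0.0238, the smallest that 84 splits of 9 arrays allow). Pairs of wild-type arrays differed from each other by 0.220 to 0.253, and all 18 pairs of a lymphoma with a wild-type array lay above that, at 0.358 to 0.440. The 10 such pairs within a subset of arrays lay at 0.358 to 0.391. Pairs of a lymphoma with a KO DN3 array lay at 0.331 to 0.466, with a median of 0.407, against 0.391 for lymphoma with wild-type pairs. Within a subset of arrays these medians were 0.367 and 0.374. Whether lymphomas lay nearer to KO DN3 or to wild-type cells was not tested.

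The same order held for the share of genes that differed 2-fold or more between arrays. That share was 3.01, 2.67, 2.57, 2.63, 2.37 and 2.08% for lymphomas 1 to 6 against wild-type cells, a mean of 2.56 ± 0.310% (SD, n = 6). It was 1.46, 0.753 and 1.18% for the KO DN3 arrays, a mean of 1.13 ± 0.357% (SD, n = 3), below every lymphoma (exact permutation test, two-sided p = 0.0238, the smallest possible). Between wild-type arrays it was 0.120 to 0.314%. Lymphoma with KO DN3 pairs had a median of 2.44%, against 2.52% for lymphoma with wild-type pairs (1.76 and 2.39% within a subset of arrays). When distance was measured on ranks, as 1 minus the Spearman correlation, lymphomas and KO DN3 cells were not separable, at 0.0678 and 0.0626 (exact permutation test, two-sided p = 0.50). The difference in root mean square distance also lost its call without wild-type array 1 (exact p = 0.119) and without the filter on dim genes (0.0420, exact p = 0.0714), and it was 0.0308 without KO DN3 array 2.

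**Figure D1:**
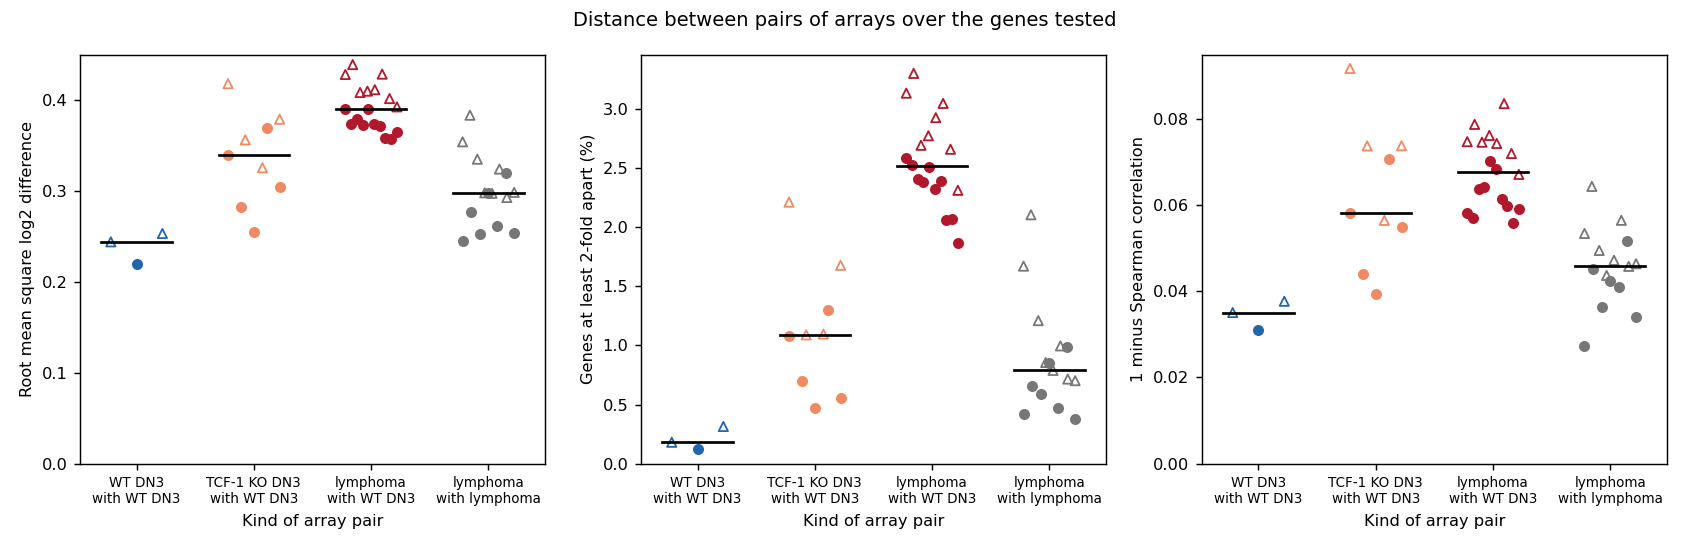
Distance between pairs of arrays by kind of pair (horizontal axis), as root mean square log2 difference (left), percentage of genes at least 2-fold apart (middle) and 1 minus the Spearman correlation (right); filled circles are pairs within a subset of arrays, open triangles pairs across subsets, and bars the medians. Lymphoma with wild-type pairs lie at 0.358 to 0.440 on the left, above the wild-type pairs at 0.220 to 0.253, and partly overlap the pairs of KO DN3 with wild-type arrays.

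Lymphomas and wild-type cells differed in 871 genes at an adjusted p under 0.05, or 5.82% of the genes tested (limma with Benjamini-Hochberg adjustment), 443 of them higher in lymphomas (2.96%) and 428 lower (2.86%). Among them, 137 rose 2-fold or more (0.916% of genes tested) and 118 fell 2-fold or more (0.789%), together 255 (1.71%). At an unadjusted limma p under 0.05, 1175 of the 14953 genes tested were higher and 1148 lower. Counts at that cut given for gene lists below are to be read beside these. The lymphoma and wild-type arrays did not overlap for 846 of the 871, against 1544 of all genes tested (10.3%). All 871 had the same sign in both subsets of arrays, which the choice by mean change and p in these same arrays favours. In the smaller subset the wild-type cells are array 1 alone. For 26 of the 139 called genes chosen for naming, the changes within the subsets differed by more than 1.5 times. The widest gaps among genes described below were those of Pfkp (0.23 and 0.98), Pkm (0.16 and 0.62), Vpreb1 (−2.70 and −0.83), Cdk6 (−0.50 and −1.03) and Dntt (−0.56 and −1.13). The 3 wild-type arrays set the number of calls, which was 564, 560 and 570 when wild-type array 1, 2 or 3 was left out, and 450 of the 871 genes (226 of the 255) passed with each of the 9 arrays left out in turn. Probe sets with several gene symbols or none were fitted apart, and 4.86% and 1.80% of them were called.

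The genes that rose most were Cd2, Chd7, Gimap4 and Ikzf3. Cd2 encodes an adhesion receptor of T cells that binds CD48. It was at 5.49, 5.81 and 5.53 on the wild-type arrays and at 9.25 to 10.02 (median 9.76) on the lymphoma arrays, a 17.4-fold rise (log2 change 4.12 ± 0.15 SE, limma adjusted p = 3.6e-08; 4.23 and 4.07 within the subsets). Cd2 was near the floor in every wild-type sample and high in every tumour, and the KO DN3 mean, 9.55, was close to the tumours. Chd7, an ATP-dependent chromatin remodeller, was at 5.52, 6.68 and 6.08 on the wild-type arrays and at 9.03 to 10.52 (median 9.69) on the lymphoma arrays, 12.2-fold higher (log2 change 3.61 ± 0.30 SE, limma adjusted p = 1.9e-05; 3.94 and 3.45 within the subsets). Here the KO DN3 mean, 6.13, lay within the wild-type range, and lymphomas exceeded KO DN3 cells by 3.58 (limma adjusted p = 0.00013). When all 30 probe sets of Chd7 were averaged, the change was 2.01.

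Gimap4, a GTPase of lymphocytes that rises as thymocytes mature, was at 4.73, 5.37 and 5.34 on the wild-type arrays and at 8.12 to 8.90 (median 8.56) on the lymphoma arrays, 10.6-fold higher (log2 change 3.40 ± 0.19 SE, limma adjusted p = 6.0e-07; 3.92 and 3.14 within the subsets). Ikzf3, which encodes the Ikaros-family factor Aiolos, was at 5.97, 6.36 and 5.75 on the wild-type arrays and at 9.11 to 9.47 (median 9.36) on the lymphoma arrays, 9.92-fold higher (log2 change 3.31 ± 0.13 SE, limma adjusted p = 4.7e-08; 3.32 and 3.30 within the subsets). The KO DN3 means of Gimap4 and Ikzf3, 6.73 and 7.92, lay between the groups, and both genes were also higher in lymphomas than in KO DN3 cells, by 1.82 and 1.42 (limma adjusted p = 7.6e-05 for each). Afdn, the adaptor afadin that ties nectin contacts to actin, rose from a wild-type range of 6.02 to 6.31 to a lymphoma range of 9.04 to 9.35. Agfg1, an Arf GTPase-activating protein family member, rose from 8.74 to 8.80 in wild-type cells to 11.19 to 11.46 in lymphomas. Ikzf3, Afdn and Agfg1 varied little among tumours, with SDs of 0.14, 0.11 and 0.13 over the 6 lymphomas.

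Pdgfrb, a receptor tyrosine kinase better known from mesenchymal cells, rose from 5.73 to 6.00 in wild-type cells to 8.55 to 9.02 in lymphomas (log2 change 2.92 ± 0.12 SE, limma adjusted p = 7.9e-08; 2.94 and 2.91 within the subsets). Rapgef2, an activator of the integrin regulator Rap1, rose by 2.66 and Ctnnd1, the p120 catenin that binds cadherins, by 2.46, with lymphoma ranges of 9.52 to 9.99 and 7.28 to 8.07. Ptpn14, a tyrosine phosphatase, rose by 2.83 and Uaca, a coiled-coil and ankyrin-repeat protein, by 3.05. Wider spreads were seen for Atp8a2, a phospholipid flippase (7.43 to 9.73 in lymphomas, against 5.25 to 5.32), for Drd5, a dopamine receptor (6.69 to 8.51, against 4.95 to 5.21), and for Etv5, an Ets-family factor (6.66 to 9.36, against 5.64 to 6.02). Id2, an inhibitor of E-protein factors, was at 5.29, 5.53 and 5.64 on the wild-type arrays and at 6.70 to 8.76 (median 7.89) on the lymphoma arrays, a rise of 2.44 ± 0.35 SE (limma adjusted p = 0.00099), with 3.37 and 1.97 within the subsets.

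The genes that fell most included a ubiquitin ligase, a myosin light chain, an integrin chain and a galectin. Rnf130, a ubiquitin ligase, was at 9.12, 9.15 and 8.74 on the wild-type arrays and at 4.76 to 5.52 (median 5.14) on the lymphoma arrays, 14.4-fold lower (log2 change −3.85 ± 0.16 SE, limma adjusted p = 7.9e-08; −4.22 and −3.66 within the subsets). Myl10, a myosin regulatory light chain, was at 10.49, 9.99 and 10.05 on the wild-type arrays and at 5.17 to 7.35 (median 6.36) on the lymphoma arrays (log2 change −3.81 ± 0.39 SE, limma adjusted p = 9.6e-05; −3.24 and −4.10 within the subsets). Rnf130 was close to the floor in every tumour, whereas Myl10 ranged over more than 2 log2 units among them. Itga4, the integrin alpha 4 chain with which early thymocytes bind VCAM-1 and fibronectin, was at 9.62, 9.72 and 9.65 on the wild-type arrays and at 5.52 to 7.12 (median 5.95) on the lymphoma arrays, 11.9-fold lower (log2 change −3.58 ± 0.29 SE, limma adjusted p = 1.6e-05; −3.79 and −3.47 within the subsets). The KO DN3 means of these genes, 8.11, 9.69 and 8.94, were nearer to wild-type cells, and lymphomas were below KO DN3 cells by 2.85 for Itga4 (limma adjusted p = 0.00024).

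Dgkeos, the opposite-strand transcript of the diacylglycerol kinase gene Dgke, fell from 8.34, 8.61 and 8.77 on the wild-type arrays to 4.56 to 5.30 on the lymphoma arrays (−3.62 ± 0.15 SE, limma adjusted p = 7.9e-08; −3.48 and −3.70 within the subsets). Dgke, picked out after its value was seen because the loci are paired, fell by 2.09. Atp8b4, a second phospholipid flippase, fell by 3.62, to 4.93 to 6.35 from 8.78 to 9.06, while Atp8a2 rose. Of the 18 genes of phospholipid transport tested, Atp8a2 and Atp11a were higher (11.1%, against 2.96% of all genes) and Atp8b4 lower (5.56%, against 2.86%), with a list median of −0.04. Lgals1, a galectin that cross-links surface glycans, fell by 3.18 to a lymphoma range of 6.18 to 8.14, from 10.23 to 10.60. Anxa2, a membrane-binding annexin, fell by 2.47, Ppt1, a lysosomal thioesterase, by 2.41 and Marcks, an actin-linked substrate of protein kinase C, by 2.40. The falls of Akr1c13 (an aldo-keto reductase), Khdc1a and Gbp8 (a guanylate-binding protein) concern genes with close paralogues, whose probes may be shared, and the gene behind them is therefore uncertain. Atxn1, ataxin 1, fell by 2.62, and its change was −1.59 when its probe sets were averaged.

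**Figure D2:**
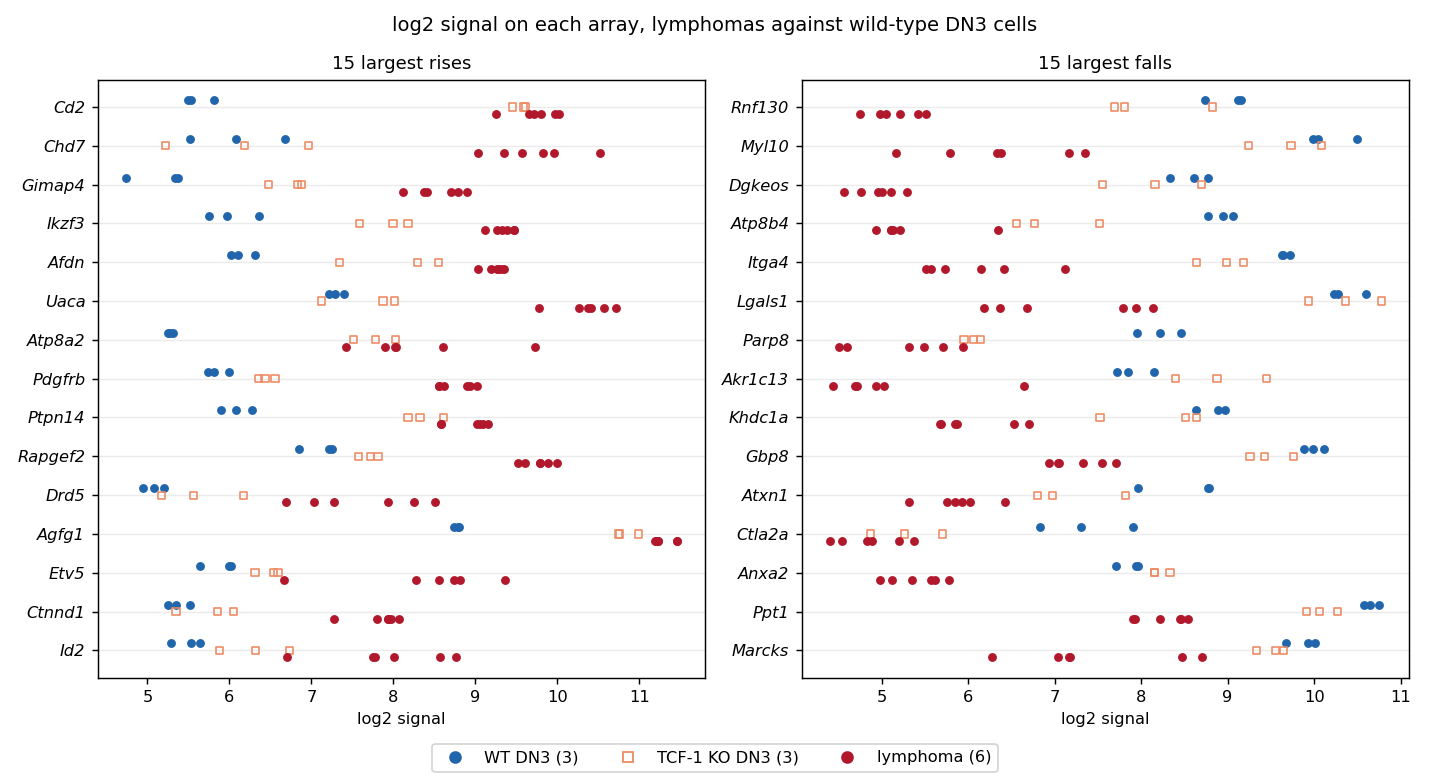
Log2 signal (horizontal axis) of the 15 genes with the largest rises (left) and the 15 with the largest falls (right), 1 point per array, for 3 wild-type DN3, 3 KO DN3 and 6 lymphoma arrays. The genes were chosen among those whose lymphoma and wild-type values do not overlap, and the KO DN3 values lie with the lymphomas for Cd2 and with the wild-type cells for Chd7 and Lgals1.

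Of the 15 largest rises, 12 were also higher in lymphomas than in KO DN3 cells, where 4.50% of all genes were called higher (limma adjusted p under 0.05). The exceptions were Cd2, Atp8a2 and Ptpn14, with lymphoma minus KO DN3 differences of 0.19, 0.51 and 0.54. Of the 15 largest falls, 13 were also lower than in KO DN3 cells, where 2.12% of all genes were called lower, the exceptions being Parp8, a mono-ADP-ribosyltransferase (−0.79), and Ctla2a, a cysteine protease inhibitor (−0.41). Both comparisons use the same lymphoma arrays, so the second is not independent of the first. Against KO DN3 cells 990 genes were called in all (6.62%), 673 higher and 317 lower, and 457 or 431 were called without KO DN3 array 1 or 3. The split of these calls depended on the scaling, with 491 higher and 448 lower (3.28 and 3.00% of genes tested) after repeated quantile normalisation and 789 higher and 250 lower (5.28 and 1.67%) with median-centred arrays. Under those scalings 11 and 13 of the 15 largest rises were called higher than in KO DN3 cells, and 13 of the 15 largest falls lower under each. Akr1c13 was at 9.45, 8.88 and 8.40 on the KO DN3 arrays, at 7.73 to 8.15 in wild-type cells and at 4.44 to 6.64 in lymphomas. Ifitm3, an interferon-induced membrane protein, was at 9.24, 8.80 and 7.26 on the KO DN3 arrays, at 7.03 to 7.28 in wild-type cells and at 5.12 to 6.08 in lymphomas. The KO DN3 values lay above the wild-type values for Akr1c13 and overlapped them on array 3 for Ifitm3, and KO DN3 and wild-type cells were not tested against each other here.

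The promoter sequences of Gimap4, the gene with the largest rise that had one in the RefSeq table, and of Rnf130, the gene with the largest fall, are shown with those windows of Myl10 and Lef1 that hold the letters to which TCF/LEF factors bind. Each runs 250 bases up to an annotated transcription start on the plus strand (RefSeq, GRCm38.p6), at chr6:48684328-48684577 for Gimap4, chr11:50025081-50025330 for Rnf130, chr5:136693426-136693675 for Myl10 and chr3:131156044-131156293 for Lef1, and capitals mark the TCF/LEF letters.
Gimap4: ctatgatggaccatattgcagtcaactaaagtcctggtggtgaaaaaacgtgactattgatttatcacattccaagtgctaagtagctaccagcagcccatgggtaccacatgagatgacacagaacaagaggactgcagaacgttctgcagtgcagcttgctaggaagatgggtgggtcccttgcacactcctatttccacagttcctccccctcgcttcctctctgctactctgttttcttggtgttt
Rnf130: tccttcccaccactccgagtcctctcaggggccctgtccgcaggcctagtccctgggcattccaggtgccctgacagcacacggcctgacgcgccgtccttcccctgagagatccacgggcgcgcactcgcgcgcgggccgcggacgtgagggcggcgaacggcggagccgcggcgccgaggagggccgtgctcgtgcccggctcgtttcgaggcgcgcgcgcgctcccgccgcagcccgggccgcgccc
Myl10: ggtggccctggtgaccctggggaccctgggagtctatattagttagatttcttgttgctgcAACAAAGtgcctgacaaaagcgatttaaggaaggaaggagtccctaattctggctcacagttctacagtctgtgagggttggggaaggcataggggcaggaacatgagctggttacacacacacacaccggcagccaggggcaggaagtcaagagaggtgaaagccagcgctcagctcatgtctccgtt
Lef1: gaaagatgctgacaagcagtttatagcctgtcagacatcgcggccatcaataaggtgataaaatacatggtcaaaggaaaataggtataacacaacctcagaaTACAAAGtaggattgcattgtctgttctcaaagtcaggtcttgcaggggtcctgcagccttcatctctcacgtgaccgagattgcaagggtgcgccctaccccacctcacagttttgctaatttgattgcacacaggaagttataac
The Gimap4 and Rnf130 windows hold no such letters, and the Rnf130 window is rich in CG pairs. The Myl10 window holds AACAAAG and is 1 of 3 windows of that gene. The Lef1 window holds TACAAAG and is 1 of 4. Lef1, the closest relative of TCF-1, was at 8.67, 8.83 and 8.93 on the wild-type arrays and at 9.99 to 10.40 (median 10.26) on the lymphoma arrays, a rise of 1.43 ± 0.10 SE (limma adjusted p = 5.3e-06; 1.43 and 1.44 within the subsets).

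Over windows from 250 bases before to 50 after the start, the TCF/LEF letters, CTTTGNN with A or T at each of the last positions, were found on either strand in 12.3% of the 14787 windows of tested genes. They were in 13.7% of windows of genes called higher and 13.9% of windows of genes called lower, and in 12.2 and 17.4% of the windows of genes that rose or fell 2-fold or more. A match says only that the letters occur there.

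Genes of the DN2 and DN3 stages divided. Of 23 tested, 4 were higher (17.4%, against 2.96% of all genes), 8 lower (34.8%, against 2.86%) and 11 not called, with a median change of −0.31 against −0.01 over all genes. The mean level of the list was 8.44 to 8.46 in wild-type cells, 8.18 to 8.34 in KO DN3 cells and 8.02 to 8.20 in lymphomas. Rag1, a subunit of the V(D)J recombinase, was at 10.30, 10.34 and 10.53 on the wild-type arrays and at 7.42 to 9.63 (median 8.66) on the lymphoma arrays (−1.92 ± 0.37 SE, limma adjusted p = 0.0082; −2.08 and −1.84 within the subsets). Rag2, its partner, was at 6.82, 6.54 and 6.71 on the wild-type arrays and at 4.84 to 6.48 (median 5.01) on the lymphoma arrays (−1.39 ± 0.31 SE, limma adjusted p = 0.020; −1.81 and −1.18 within the subsets). Dntt, which adds untemplated bases at the joins, fell by 0.94 to 9.54 to 10.20, so it stayed among the high signals of the array. All lymphomas were below all wild-type cells for the 3 genes, by amounts that varied most for Rag1. Of the 13 V(D)J genes tested, these 3 were lower (23.1%, against 2.86% of all genes) and Xrcc5, the end-joining protein Ku80, was higher (7.69%, against 2.96%).

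Il7r, the interleukin-7 receptor chain that early thymocytes need to survive, was at 8.64, 8.76 and 8.72 on the wild-type arrays and at 5.67 to 8.26 (median 6.15) on the lymphoma arrays (−2.30 ± 0.46 SE, limma adjusted p = 0.011; −2.9 and −2.0 within the subsets). Lymphoma 3 held 8.26 and lay just under the wild-type cells, and the other lymphomas lay far below. Erg, an Ets factor of progenitors, fell by 1.34 and Kit, the stem cell factor receptor, by 1.03. With Nfe2 they were the 3 called among 18 early progenitor genes, all lower (16.7%, against 2.86% of all genes). None of the 18 was higher by limma, also at an unadjusted p under 0.05. Rag1, Rag2 and Il7r lost their calls when particular wild-type arrays were left out (array 3 for Rag1, any of the 3 for Rag2, array 2 or 3 for Il7r). Without wild-type array 1, 2 or 3, 5, 5 and 3 members of the DN2 and DN3 list were called lower. Among the members that rose, Gata3, a factor that T-cell development needs, gained 0.75 (its call ended without wild-type array 1), Dtx1, a Notch target, 0.92, Ets1 0.40 and the E-protein gene Tcf12 0.41.

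DP-stage genes showed no common direction. Of 21 tested, 4 were higher (19.0%, against 2.96% of all genes) and 5 lower (23.8%, against 2.86%), with a median of −0.02. Cd8b1, the CD8 beta chain, was at 6.20, 5.80 and 5.95 on the wild-type arrays and at 6.77 to 8.14 (median 7.44) on the lymphoma arrays (1.43 ± 0.23 SE, limma adjusted p = 0.0026; 1.07 and 1.61 within the subsets). The KO DN3 arrays were already at 7.41, 7.34 and 7.40 for Cd8b1, and lymphomas differed from them by 0.03 (limma adjusted p = 0.94). Cd8a spread over 5.82 to 7.70 in lymphomas, overlapped the wild-type values of 5.67 to 6.03 and was not called (limma adjusted p = 0.29). Its KO DN3 values were 7.05, 7.03 and 6.98, above the lymphoma mean of 6.65. Itm2a, a membrane protein induced at positive selection, rose by 2.02, while Ly6d, a surface protein of the Ly6 family, fell by 2.32 and Themis, an adaptor of T-cell receptor signalling, by 0.73.

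Of 20 genes of mature T cells tested, 9 were higher (45.0%, against 2.96% of all genes) and 1 lower (5.0%, against 2.86%), with a median of 0.54, and of 0.51 and 0.54 within the subsets. The mean level of the list was 5.98 to 6.07 in wild-type cells, 6.26 to 6.38 in KO DN3 cells and 6.32 to 6.63 in lymphomas. KO DN3 cells thus also lay above wild-type cells. The 9 were Gimap4, Gimap6, Gimap7, Gimap8 and Gimap9, Cd5, Cd6, Cd28 and Ikzf2, and the lower one was Il7r. The Gimap genes lie in 1 cluster and resemble each other, so they are not independent. Cd5, an inhibitory receptor whose level follows T-cell receptor signalling, was at 6.38, 6.52 and 6.45 on the wild-type arrays and at 7.26 to 7.64 (median 7.41) on the lymphoma arrays (0.98 ± 0.10 SE, limma adjusted p = 7.5e-05; 1.11 and 0.91 within the subsets). The KO DN3 mean of Cd5 was 7.08, and lymphomas exceeded it by 0.35 without a call (limma adjusted p = 0.10). Cd28, the main costimulatory receptor, rose by 1.26 and Ikzf2, the Ikaros-family factor Helios, by 1.17.

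Of 29 genes of the pre-T-cell receptor and of its proximal signalling tested, 10 were higher (34.5%, against 2.96% of all genes) and 3 lower (10.3%, against 2.86%), with a median of 0.18. The mean level of the list was 7.61 to 7.68 in wild-type cells, 7.80 to 7.92 in KO DN3 cells and 7.98 to 8.05 in lymphomas. Fyn, a Src-family kinase, was at 7.09, 7.25 and 7.04 on the wild-type arrays and at 8.41 to 8.92 (median 8.66) on the lymphoma arrays (1.54 ± 0.11 SE, limma adjusted p = 4.6e-06; 1.53 and 1.54 within the subsets). Zap70, the kinase that docks on phosphorylated CD3 chains, rose by 1.17 and Rasgrp1, a Ras activator, by 0.91. Syk, the relative of Zap70 used at early stages, fell by 0.55, and Cd3g, a CD3 chain, by 0.35. Prkcq, Dgka, Ptpn6 and the adaptor Sla were among the others that rose, by 0.37 to 1.01.

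Among costimulatory and inhibitory receptors, 9 of 26 were higher (34.6%, against 2.96% of all genes) and 3 lower (11.5%, against 2.86%), with a median of 0.18. Their mean level was 5.94 to 6.05 in wild-type cells, 6.22 to 6.28 in KO DN3 cells and 6.15 to 6.55 in lymphomas. Icos, an inducible costimulator, rose by 1.63 (6.54 to 7.84 in lymphomas against 5.64 to 5.90), Cd160 by 1.65 and the SLAM-family receptors Slamf6 and Ly9 by 1.29 and 0.87. Btla, an inhibitory receptor, rose by 0.91 and Cd27, a TNF-receptor family member, by 0.63. Ctla4, an inhibitory receptor for the same ligands as Cd28, went the other way, from 7.55, 8.28 and 7.84 on the wild-type arrays to 5.80 to 6.72 (median 6.06) on the lymphoma arrays (−1.78 ± 0.20 SE, limma adjusted p = 0.00014; −1.48 and −1.93 within the subsets). The KO DN3 mean of Ctla4 was 8.76, so lymphomas lay below both DN3 groups. Cd48, the ligand of Cd2, fell by 1.91 from a wild-type mean of 8.03 ± 0.203 (SD, n = 3) to a lymphoma mean of 6.12 ± 0.620 (SD, n = 6), opposite to its receptor.

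T-lineage transcription factors were higher in 10 of 36 (27.8%, against 2.96% of all genes) and lower in 1 (2.78%, against 2.86%), with a median of 0.16. Besides Ikzf3, Id2, Lef1, Ikzf2, Gata3, Ets1 and Tcf12, they were Tox, a factor of thymic selection (0.79), Egr1, an early gene of receptor signalling (0.92), and Ikzf1, Ikaros itself (0.72). Zbtb20, a BTB zinc-finger factor, was at 7.16, 7.01 and 6.88 on the wild-type arrays and at 5.71 to 6.12 on the lymphoma arrays (−1.08 ± 0.11 SE, limma adjusted p = 7.0e-05; −1.27 and −0.98 within the subsets), with a KO DN3 mean of 5.61. Bcl11b, which fixes T-lineage commitment, was at 6.99 to 7.24 in wild-type cells and 6.59 to 7.18 in lymphomas and was not called (limma adjusted p = 0.63).

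Notch pathway genes were mostly not called. Of 29 tested, Dtx1 and the Hes-related repressor Heyl were higher (6.9%, against 2.96% of all genes) and 0 were lower by limma, with a median of −0.00. At an unadjusted limma p under 0.05, 3 were higher and 5 lower, against 1175 and 1148 of the 14953 genes tested. Up to 3 were called lower under other settings. Notch1, the receptor itself, was at 8.21, 8.59 and 8.39 on the wild-type arrays and at 7.62 to 8.28 (median 8.18) on the lymphoma arrays, overlapping (−0.35 ± 0.15 SE, limma adjusted p = 0.29). Hes1, a direct Notch target, scattered in both groups, at 7.36, 6.88 and 6.32 in wild-type cells and 6.32 to 7.68 in lymphomas.

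Among Wnt and beta-catenin genes, 3 of 33 were higher (9.09%, against 2.96% of all genes) and 3 lower (9.09%, against 2.86%). The list median was 0.01 and fell to −0.00 after repeated quantile normalisation. Axin2, a feedback inhibitor that beta-catenin with TCF factors induces, was at 5.94, 5.55 and 5.57 on the wild-type arrays and at 6.88 to 7.21 (median 7.02) on the lymphoma arrays (1.35 ± 0.11 SE, limma adjusted p = 2.1e-05; 1.11 and 1.47 within the subsets). Lef1 rose with it, and Tcf7l2, another TCF/LEF member, fell by 1.13 to 5.21 to 5.49 from 6.36 to 6.53. Of the D-type cyclins, Ccnd1 rose by 1.14 (5.83 to 7.20 in lymphomas against 5.41 to 5.67; its call ended without any 1 of the wild-type arrays) and Ccnd2 fell by 1.72 (6.74 to 7.78 against 8.90 to 8.98). Tle3, a corepressor that TCF factors bind, fell by 0.41.

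Cytokine and growth factor receptors were called in both directions, 4 of 33 higher (12.1%, against 2.96% of all genes) and 6 lower (18.2%, against 2.86%). Besides Pdgfrb, Il6st, the signalling chain gp130, rose by 1.17 and Il2rb by 0.93. Tgfbr1, the type I TGF-beta receptor, was at 8.40, 8.08 and 8.11 on the wild-type arrays and at 6.66 to 7.02 (median 6.84) on the lymphoma arrays (−1.36 ± 0.11 SE, limma adjusted p = 1.0e-05; −1.41 and −1.33 within the subsets). Ifngr1, a chain of the interferon gamma receptor, fell by 1.64, Ifnar2, of the type I interferon receptor, by 0.77 and Il17ra by 0.58. Of 29 interferon response genes, 0 were higher by limma (1 at an unadjusted p under 0.05) and 6 lower (20.7%, against 2.86%), among them the guanylate-binding protein genes Gbp8 (−2.72), Gbp7 (−1.31) and Gbp4 (7.03 to 7.75 in lymphomas against 9.24 to 9.37), Samd9l (−2.08) and the RNA sensor Ddx58 (−0.76), while the list median was −0.08. The Gbp genes are paralogues whose probes may be shared.

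The share of cell cycle genes called differed between lists. It was 0 for DNA replication genes, 6.25% for G2 and mitosis genes and 20.8% for G1 genes, against 5.82% of all genes. Of 35 DNA replication genes, 0 were called by limma (1 higher and 1 lower at an unadjusted p under 0.05), with a median of −0.06. Of 32 G2 and mitosis genes, 31 lay above 0, with a median of 0.22 (0.36 and 0.15 within the subsets). Over all genes tested 7223 lay above 0 (48.3%) and 7730 below. Only Cdc25c, the phosphatase that starts mitosis (0.73), and Ndc80, a kinetochore protein (0.47), were called (6.25%, against 2.96% of all genes). At an unadjusted limma p under 0.05, 10 of the 32 were higher and 0 lower, against 1175 and 1148 of the 14953 genes tested. The mean level of the mitosis list was 7.32 to 7.56 in wild-type cells, 7.54 to 7.89 in KO DN3 cells and 7.34 to 7.91 in lymphomas, so the groups overlapped. Among 24 G1 genes tested, Ccnd2, Cdk6, the kinase that D cyclins activate (−0.85), and E2f2 (−0.69) were lower (12.5%, against 2.86% of all genes). Ccnd1 and the inhibitor Cdkn2c (0.65) were higher (8.33%, against 2.96%). Myc, at 9.68 to 10.02 in wild-type cells and 9.45 to 9.91 in lymphomas, was not called (limma adjusted p = 0.65), and of 34 Myc network and nucleolar genes 0 were called by limma (6 lower at an unadjusted p under 0.05), with 30 below 0 and a median of −0.10.

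Of 33 oncogenes and kinases of T-cell acute leukaemia tested, 1 was higher (3.03%, against 2.96% of all genes) and 4 were lower (12.1%, against 2.86%), and of 32 tumour suppressors 5 were higher (15.6%) and 1 lower (3.12%). The single calls are near the share over all genes. The lower oncogenes were Erg, Ccnd2, Il7r and the survival gene Bcl2, which was at 8.26, 8.18 and 8.42 on the wild-type arrays and at 6.62 to 7.65 (median 7.23) on the lymphoma arrays (−1.13 ± 0.20 SE, limma adjusted p = 0.0048; −1.03 and −1.18 within the subsets). The higher tumour suppressors were Lef1, Ikzf1, Gata3, the Ras inhibitor Nf1 (0.44) and the DNA methyltransferase gene Dnmt3a (0.32). Cdkn2a, the Ink4a/Arf locus, was near the floor, at 5.03 to 5.36 in wild-type cells and 5.02 to 5.48 in lymphomas, and was not called (limma adjusted p = 0.81). Of 24 genes of the p53 pathway, 4 were higher (16.7%, against 2.96% of all genes) and 1 lower (4.17%, against 2.86%), with changes of −0.52 to 0.72 among those called.

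Of 43 chromatin regulators tested, 7 were lower (16.3%, against 2.86% of all genes) and 2 higher (4.65%, against 2.96%), with a median of −0.14. Smarca4, the ATPase of the BAF remodelling complex, was at 9.41, 9.47 and 9.34 on the wild-type arrays and at 8.09 to 8.39 (median 8.16) on the lymphoma arrays (−1.20 ± 0.09 SE, limma adjusted p = 5.4e-06; −1.25 and −1.18 within the subsets). Chd3, a remodeller of the NuRD complex, fell by 1.77, the deacetylase gene Hdac4 by 1.42 and the demethylase gene Kdm5b by 1.86, with Kdm5b spread over 5.08 to 7.22 among tumours. Of the 7, Chd3, Hdac4, Smarca4 and Chd9 stayed called with each array left out in turn, and Kdm5b, Ezh1 and Arid1b lost the call without any 1 wild-type array.

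Genes of cholesterol and fatty acid synthesis were lower in 7 of 25 (28.0%, against 2.86% of all genes) and higher in 0 by limma (13 and 0 at an unadjusted p under 0.05). Of the 25, 22 lay below 0, against 7730 of the 14953 genes tested, and the median was −0.31 (−0.25 and −0.34 within the subsets). The 7 were Hmgcs1 (−0.91), Idi1 (−1.12), Sqle (5.65 to 6.62 against 7.16 to 7.33), Cyp51 (−0.58), Msmo1 (−0.94) and Nsdhl (−0.50), which act in turn on the way to cholesterol, and Elovl6 (−1.18), which lengthens fatty acids. Hmgcs1 was at 7.04, 7.57 and 7.61 on the wild-type arrays and at 6.15 to 6.80 (median 6.44) on the lymphoma arrays, without overlap. Glycolysis genes were called higher in 2 of 21 (9.52%, against 2.96% of all genes), Pfkp (0.73) and Pkm (0.46). Both changes were small in the smaller subset, at 0.23 and 0.16. The call of Pfkp was lost without wild-type array 2 or 3, and that of Pkm without any 1 wild-type array and without lymphoma 3, 4, 5 or 6.

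Immediate-early genes and feedback inhibitors of MAP kinases were higher in 7 of 33 (21.2%, against 2.96% of all genes) and lower in 0 by limma (1 at an unadjusted p under 0.05), with a median of 0.02. Dusp10, a phosphatase of stress-activated kinases, was at 7.31, 7.66 and 7.47 on the wild-type arrays and at 9.25 to 9.72 (median 9.45) on the lymphoma arrays (1.99 ± 0.11 SE, limma adjusted p = 7.8e-07; 2.04 and 1.97 within the subsets). Zfp36, which speeds decay of cytokine RNAs, rose by 1.49, Spred2, an inhibitor of Ras signalling, by 0.65 and Dusp6, an ERK phosphatase, by 0.66, besides Etv5 and Egr1. Among 35 integrins and adhesion genes tested, Afdn, Rapgef2 and Itgb2, the beta 2 integrin chain (1.09), were higher (8.57%, against 2.96% of all genes). Itga4, Lgals1, Cdh1, which is E-cadherin (−0.80), Selplg, the selectin ligand (−0.57), and Cd47 (−0.84) were lower (14.3%, against 2.86%). Of 19 chemokine and lipid receptors, Ccr4 was higher (1.49) and P2ry10 lower (−0.95), or 5.26% each way, against 2.96 and 2.86% of all genes.

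**Figure D3:**
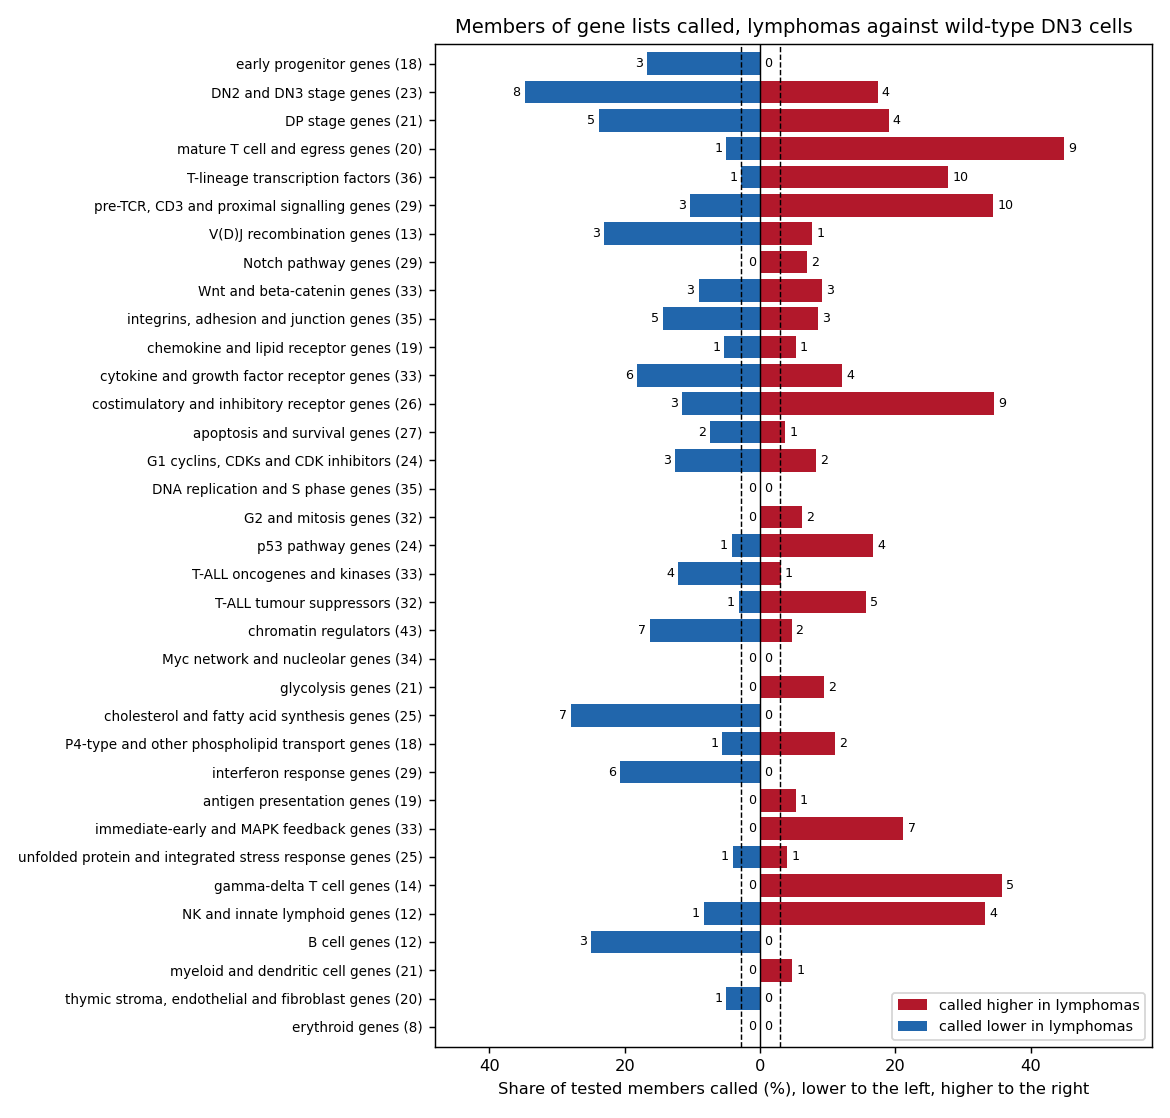
Percentage of the tested members of each gene list that were called lower (bars to the left) or higher (bars to the right) in lymphomas, with the number of called genes at the end of each bar and of tested genes beside each name; dashed lines mark the shares over all genes, 2.86% lower and 2.96% higher. Mature T-cell genes reach 45.0% on the right, and DN2 and DN3 genes 34.8% on the left.

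Markers of other cells were measured with the same lists. The mean level of B-cell genes was 5.16 to 5.38 on the wild-type arrays and 5.08 to 5.24 on the lymphoma arrays, and of 12 tested 0 were higher by limma (1 at an unadjusted p under 0.05) and 3 lower, Cd79b (−0.95), Vpreb1 (−1.46) and Spib (−0.43). Vpreb1, a surrogate light chain gene, was uneven among wild-type cells, at 8.02, 5.96 and 6.79, and its call ended without array 3. Cd79a, Ebf1 and Ms4a1, which define B cells, lay under the filter. Myeloid and dendritic cell genes averaged 5.06 to 5.16 and 5.14 to 5.27. Of 21 tested 1 was called (4.76%, against 2.96% of all genes called higher), H2-Aa, a class II chain, higher by 0.47, and Adgre1 lay under the filter. Stromal genes averaged 5.26 to 5.30 and 5.14 to 5.31. Of 20 tested, 1 was called, Epcam, lower by 1.05 (5.0%, against 2.86% of all genes). Erythroid genes averaged 5.85 to 6.03 and 5.87 to 6.09, with 0 of 8 called by limma, also at an unadjusted p under 0.05. A lower signal in sorted bulk cells can reflect fewer cells of a type or less RNA per cell, which cannot be told apart.

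Genes shared by gamma-delta T cells were higher in 5 of 14 (35.7%, against 2.96% of all genes) and lower in 0 by limma, also at an unadjusted p under 0.05, with a median of 0.39. Their mean level was 6.04 to 6.14 in wild-type cells, 6.38 to 6.43 in KO DN3 cells and 6.42 to 6.99 in lymphomas. The 5 were Etv5, Icos, Cd27, the scavenger receptor Cd163l1 (1.10) and the granzyme gene Gzma (0.66). Genes of NK and innate lymphoid cells were higher in 4 of 12 (33.3%, against 2.96% of all genes), Id2, the factor Nfil3 (1.27), Il2rb and Gzma. They were lower in 1 (8.33%, against 2.86%), Nkg7 (−1.50). Their mean level was 5.04 to 5.12 in wild-type cells, 5.27 to 5.40 in KO DN3 cells and 5.22 to 5.41 in lymphomas. Ncr1, Klrb1c, Klrd1 and Eomes, which mark NK cells, lay under the filter. The part of gamma-delta cells in the results was not tested.

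Of the 255 genes that changed 2-fold or more on average, 124 (48.6%) did so in each of the 6 lymphomas, 50 up and 74 down (0.829% of genes tested had that pattern), 51 in 5 and 47 in 4, a count that the choice by mean change and p favours. Over all genes tested, 727 were 2-fold or more from the wild-type mean, in the direction of their mean change, in at least 1 lymphoma, 262 of them in 1 only and 124 (17.1%) in all 6. Pairs of lymphomas differed by a root mean square of 0.246 to 0.384 (median 0.298) and pairs within a subset by 0.246 to 0.320, less than the 0.358 to 0.440 between lymphomas and wild-type cells but for the upper end of the range over all pairs. Lymphoma 1 had 248 genes 2-fold or more above the wild-type mean and 140 below it, lymphoma 6 had 135 and 143, and the KO DN3 arrays had 28 to 72 above and 34 to 90 below. The KO DN3 counts were thus lower in both directions than in any lymphoma.

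Among genes called at 2-fold or more, the lowest spreads between tumours belonged to genes that were at or near the floor in each of them. Zeb2, a zinc-finger repressor, was at 4.65 to 4.83 in lymphomas against 5.51 to 6.10 in wild-type cells, and Fnbp1l, a membrane-bending protein, at 4.52 to 4.70 against 5.47 to 6.15. Of genes with clear signal in tumours, Ccr4 (6.81 to 7.09) and Sfmbt2, a Polycomb-related gene (6.78 to 7.02), varied least. The largest spreads were those of Il7r (SD 0.98, n = 6), Etv5 (0.93), Marcks (0.93), Tead1, a partner of YAP (0.92), Plxdc2 (0.91), Lgals1 (0.87), Trat1, an adaptor of the T-cell receptor (0.86), and Kdm5b (0.84). Tead1 was at 5.09 to 7.41 in lymphomas against 4.65 to 4.91, so that 1 tumour was almost level with wild-type cells.

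**Figure D4:**
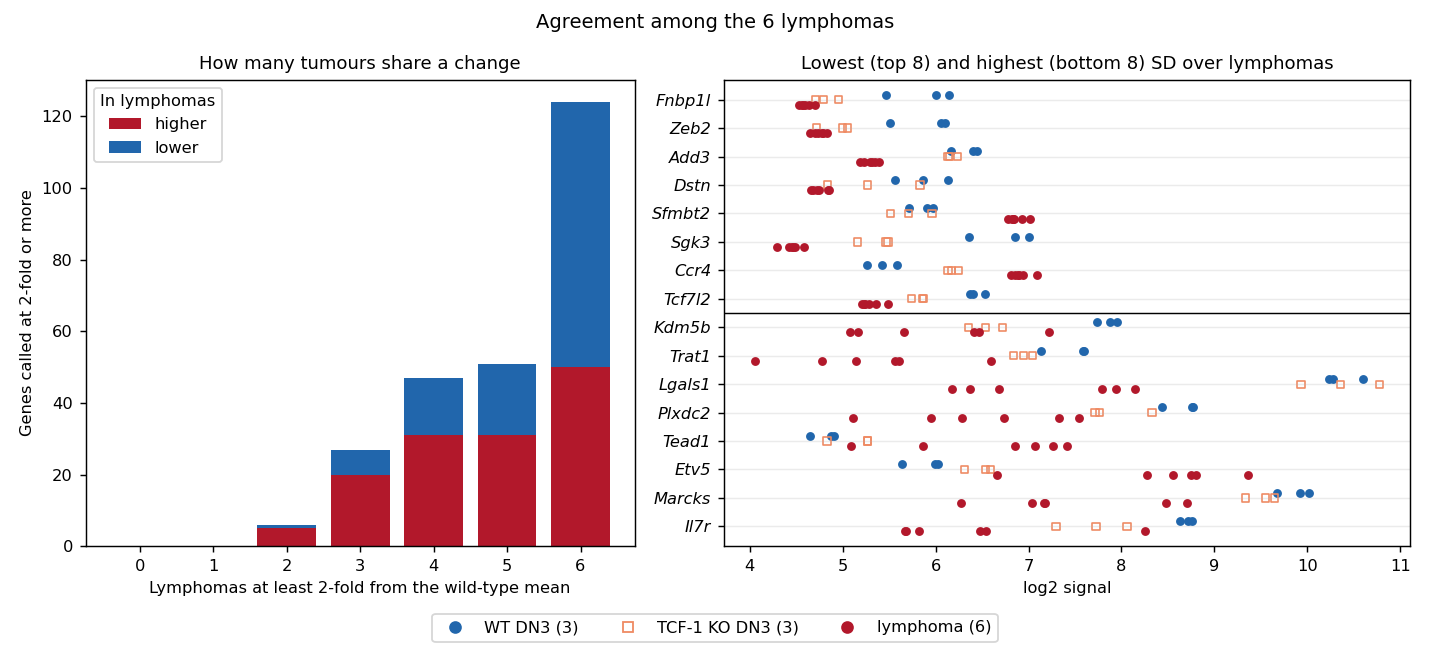
Left, number of genes called at 2-fold or more by how many of the 6 lymphomas were themselves at least 2-fold from the wild-type mean; right, log2 signal on each array for the 8 genes with the lowest and the 8 with the highest SD over lymphomas. The tallest bar is that of 124 genes shared by 6 lymphomas, and Il7r shows 1 lymphoma at 8.26 beside the others.

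Of the 139 called genes among the 149 chosen for naming, 105 kept their calls with each array left out in turn. The other 34 all lost the call without 1 or more of the wild-type arrays, and 25 of them without any loss when a lymphoma was left out. Among those named above they were Atp11a, Ccnd1, Cd163l1, Cdkn2c, Dnmt3a, Gata3, Gzma, H2-Aa, Heyl, Il7r, Kdm5b, Ndc80, Nf1, P2ry10, Pfkp, Pkm, Plxdc2, Rag1, Rag2, Spib, Spred2, Tead1, Tle3, Trat1, Vpreb1 and Xrcc5. The same held for Cd3g, Cd6, Cd47, Dgka, Dusp6, Ets1, Gimap6, Nsdhl, Ptpn6, Syk and Tcf12, which are named above as called members of a list. Without wild-type array 1, 2 or 3 the higher counts became 1, 3 and 2 for DN2 and DN3 genes, 2, 1 and 2 for the p53 pathway, 2, 3 and 3 for tumour suppressors and 4, 5 and 5 for immediate-early genes, and the lower count for pre-T-cell receptor genes became 1 each time. All 15 of the largest rises and all 15 of the largest falls were kept.

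Expression was also summed by chromosome, as the median log2 difference of each lymphoma from the wild-type mean over the tested genes of a chromosome. Chromosome 14 stood higher in lymphoma 5, by 0.149 over 519 genes, of which 73.2% lay above the wild-type mean, and in lymphoma 3, by 0.0967 with 65.9% above. In the other lymphomas chromosome 14 was at 0.0159 to 0.0328. The lowest value was that of chromosome 18 in lymphoma 4, at −0.0868 over 341 genes. Wild-type arrays differed from the other wild-type arrays by −0.0431 to 0.0304 on any chromosome. These shifts are descriptions of single tumours and carry no test.

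**Figure D5:**
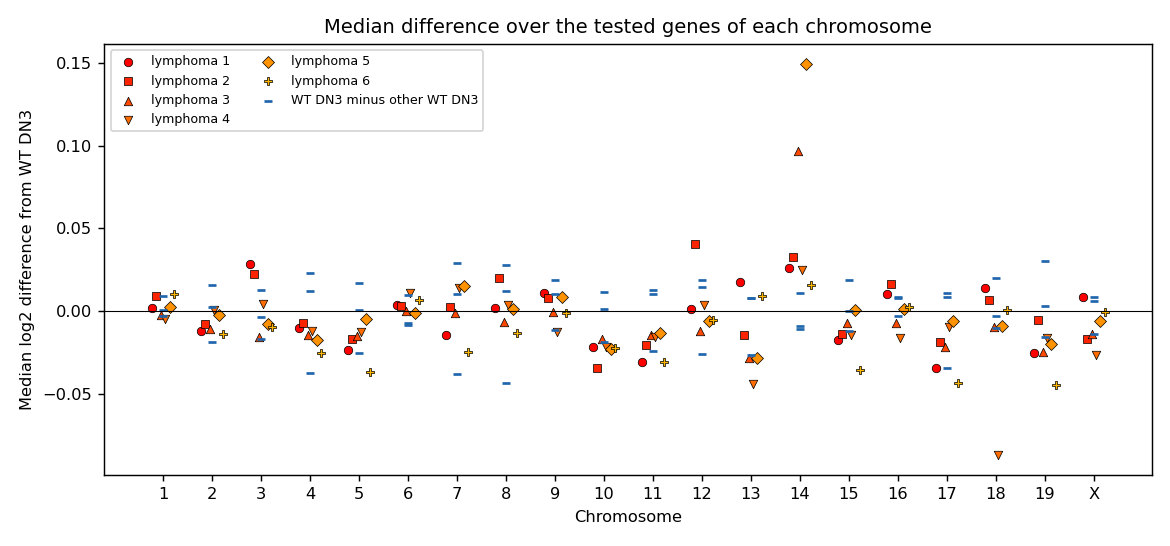
Median log2 difference from wild-type DN3 cells over the tested genes of each chromosome (horizontal axis), for each of 6 lymphomas against the wild-type mean and for each wild-type array against the other wild-type arrays. Chromosome 14 of lymphoma 5 (0.149) and lymphoma 3 (0.0967) and chromosome 18 of lymphoma 4 (−0.0868) lie farthest from 0.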

How the data were processed

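RNA of cells sorted into Trizol was amplified from 800 pg to 50 ng (NuGEN WT-Ovation Pico) and hybridised to mouse whole-transcript arrays, per the labels' protocols. The deposited values are log2 expression values that the authors made with Partek and RMA, as the submitters' processing notes state; the notes give no version, setting or log base, and the range of the values, 3.00 to 13.3, fits base 2. RMA draws low signals together and so understates changes near the floor. Of 35556 probe sets, 21789 carry 1 gene symbol, and the probe set with the highest mean stood for each of 19938 genes. Genes below the 25th percentile of mean signal (4.78) were left out, which left 14953.

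Lymphomas and wild-type DN3 cells were fitted alone with limma 3.58.1 (R 4.3.3), with p-values adjusted by Benjamini-Hochberg over all genes tested and called under 0.05. The fit against KO DN3 cells was separate. The code was tested on simulated data. Distances were compared by exact permutation tests over arrays. A limma p-value sets a group difference against the spread between the labelled biological replicates, with variance estimates that borrow from all genes tested. A permutation p-value ranks the observed grouping of arrays among all possible groupings.

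Genes named by rule were the 15 largest rises and 15 largest falls without overlap, leaving out predicted loci, the 8 lowest and 8 highest SDs over lymphomas, up to 6 called members of each of 35 lists and a set of thymocyte genes. Other called members of a list are also named, a choice made with their values in view. The members and lists were chosen with earlier results of these data known. Alternatives were other scalings, filters, probe set rules, variance models, terms for array subset and Xist, the replicate number as a block, and leaving out each array.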

Additional observations from a re-analysis of the deposited data

Results flagged for a closer look

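For 9 of the 149 genes named by rule (6.04%), 1 lymphoma lay far from the other 5, with a gap to its neighbour that took up most of the range of the group. Chance gives such a gap in about 1 in 20 groups that were not selected. These genes were chosen partly by their values in the lymphomas, so their share cannot be set against that rate. The genes are given as values only. Akr1c13 was at 6.64 in lymphoma 1, against 4.44 to 5.02 in the others. Atp8b4 was at 6.35 in lymphoma 3, against 4.93 to 5.21, and Il7r at 8.26 in the same lymphoma, against 5.67 to 6.54. Ctla4 was at 6.72 in lymphoma 4, against 5.80 to 6.09, and Ctnnd1 at 7.28 there, against 7.81 to 8.07. Cdkn2a was at 5.02 in lymphoma 2, against 5.33 to 5.48, and Il2ra at 9.89 there, against 10.35 to 10.62. Epcam was at 4.59 in lymphoma 6, against 4.84 to 4.96. Ifitm3 was at 5.12 in lymphoma 5, against 5.76 to 6.08.

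Probe sets without a single gene name also held differences between lymphomas and wild-type cells. Of 1050 probe sets with several gene symbols that passed the filter, 51 were called (4.86%), and of 7186 with no symbol 129 were called (1.80%), by limma with adjustment within each class.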

How the results depend on the processing

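The number of genes called between lymphomas and wild-type DN3 cells, 871, was 1092 with the array subset as a term, 970 with array weights and 549 in the larger subset of arrays alone and ranged from 560 to 872 with 1 array left out; the number at 2-fold or more, 255, ranged from 234 to 269. Against KO DN3 cells the number called, 990, was 1702 with the array subset as a term, 325 in the larger subset and 520 with high-Xist lymphomas alone, and ranged from 431 to 1361 with 1 array left out. The excess distance of lymphomas over KO DN3 cells, 0.0553, was 0.0420 without the filter (exact permutation p = 0.0714), 0.0682 in the larger subset (exact p = 0.133, the smallest possible there), 0.0509 with high-Xist lymphomas (exact p = 0.10, the smallest possible there), 0.00521 on ranks (exact p = 0.50), and 0.0308 to 0.0725 with 1 array left out. The cause of these shifts was not tested, and leaving out arrays also lowers the number of splits. Over all settings of the genes named by rule, 3049 values kept direction and call, 198 lost the call, 8 gained one and 9 changed sign. The sign changes were those of Cd4 (0.0074 with array weights, 0.076 in the larger subset, −0.11 to 0.12 with 1 array left out) and Hes1 (−0.038 with Xist as a term and with high-Xist lymphomas, −0.14 to 0.38 with 1 array left out), neither called in any of these fits.

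Wild-type and lymphoma arrays share replicate numbers, and same-numbered arrays deviated together with correlations of 0.44, −0.22 and 0.15. Wild-type array 1 correlated alike with lymphoma 2 (0.45), an array of the same subset. These values cannot show whether the numbers pair the arrays. With the replicate number as a block, 863 genes were called, 646 of them among the 871, 308 at 2-fold or more, and 999 against KO DN3 cells. Signal near the floor limits what can be seen of genes such as Cd4 and Cdkn2a.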
